A study of Mus musculus with 28 samples.

Results

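The regions described here are the strong, narrow H3K9me3 domains of WT cells that lie away from gene starts. A domain was taken when it lay on an autosome, was 8000 bp wide or less, had a score in the top 10% of all WT domains and had no transcription start site (TSS) of a protein-coding gene within 1000 bp. These strong narrow distal domains numbered 1498 of 53745 WT domains and covered 7.48 Mb of the 394 Mb in the WT list. They were thus chosen by their WT score, width and place, and these values are given below only as a description. Spen KO domains, other marks and DNA sequence did not enter the choice.

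The lists come from chromatin immunoprecipitation with sequencing (ChIP-seq) in HATX cells, haploid mouse embryonic stem cells (mESCs) with a doxycycline-inducible Xist transgene, which both genotypes carry. Untargeted cells (WT) were compared with Spen KO clone 2, a single clone from which most of the Spen gene is deleted. All cells were grown in serum with LIF, and the labels give no doxycycline treatment for these libraries. There was 1 deposited list per genotype for H3K9me3, H3K4me3 and H3K27Ac, each antibody having 2 ChIP libraries per genotype, and 1 list per library for Oct4. The authors describe the paired libraries as technical replicates. A difference between genotypes in a histone mark therefore has no replicate test, and the 95% Wilson intervals given here cover counting error only.

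H3K9me3 is a mark of silenced chromatin. In mESCs it is placed over many retrotransposons and other repeated sequences by the methyltransferase Setdb1, which is brought there by Trim28 and zinc finger proteins that read the DNA sequence. H3K4me3 and H3K27Ac mark active promoters and enhancers, and the RNA-binding protein Spen represses transcription together with histone deacetylases.

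Many of the domains held the same DNA. The sequences of 4 recurrent 30-base words are shown first because the comparisons that follow refer to them. Each line below gives 90 bases of the mm9 sequence from the highest scoring domain with that word, the word itself in capitals. Words 1, 3 and 7 are shown from the same intergenic domain on chromosome 4 (chr4:81524201-81527000), and word 2 from a domain in an intron of Mctp1.
word 1, chr4:81525761-81525850, minus strand: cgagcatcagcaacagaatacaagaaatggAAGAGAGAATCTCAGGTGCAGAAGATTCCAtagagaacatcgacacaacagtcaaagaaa
word 3, chr4:81525496-81525585, plus strand: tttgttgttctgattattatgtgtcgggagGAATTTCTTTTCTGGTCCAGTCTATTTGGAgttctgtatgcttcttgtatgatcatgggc
word 7, chr4:81524870-81524959, minus strand: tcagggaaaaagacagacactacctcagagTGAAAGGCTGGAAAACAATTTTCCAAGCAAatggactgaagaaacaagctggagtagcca
word 2, chr13:76633832-76633921, minus strand: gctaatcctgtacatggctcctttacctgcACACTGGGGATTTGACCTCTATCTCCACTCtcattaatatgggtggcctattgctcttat

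Word 1 occurred 13434 times in the genome, and 80.2% of those copies lay inside a WT H3K9me3 domain. It was held by 607 of the 1498 strong narrow distal domains (40.5%, interval 38.1 to 43.0%), against 11.6% of the 33723 weaker narrow distal domains. Word 3 was held by 584 domains and word 7 by 529. These words belong to a longer shared sequence: words 1 and 3 stood together in 439 domains, on opposite strands in all but 2, and in 436 of them their distance was within 50 bp of the median of 265 bp. Words 1 and 7 stood together in 403 domains at a median of 892 bp, within 50 bp of it in 397.

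Word 2 was rarer and closer to the strong domains. It occurred 2740 times in the genome, 97.9% of them inside a WT domain and 97.7% inside a Spen KO domain. It was held by 169 strong narrow distal domains (11.3%, interval 9.78 to 13.0%), by 0.0682% of the weaker narrow distal domains and by 57.0% of the 2263 strong autosomal domains wider than 8000 bp. Only 3 of the 169 also held word 1. The words were picked because many of the strong narrow distal domains hold them, so a higher share there than in weaker domains is in part the choice. In strong narrow distal domains of the Spen KO list that did not overlap any of the 1498, which the choice did not use, word 1 was held by 32.2% of 3411 against 8.34% of 48676 weaker ones, and word 2 by 5.80% against 0.125%.

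Words 1, 2, 3, 4 or 6 were found in 1048 strong narrow distal domains (69.96%) and in 19.4% of the weaker ones. Word 4 was held by 226 domains and stood at a median of 181 bp from word 1 in the 93 that held both. Word 6 was held by 48 and occurred 1015 times in the genome, 95.8% of them in a WT domain. Word 5 is the AC dinucleotide repeat. It went the other way, with 10.1% of the strong narrow distal domains against 22.5% of the weaker ones. The families these sequences belong to are not named, since no repeat annotation was used here.

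**Figure D1:**
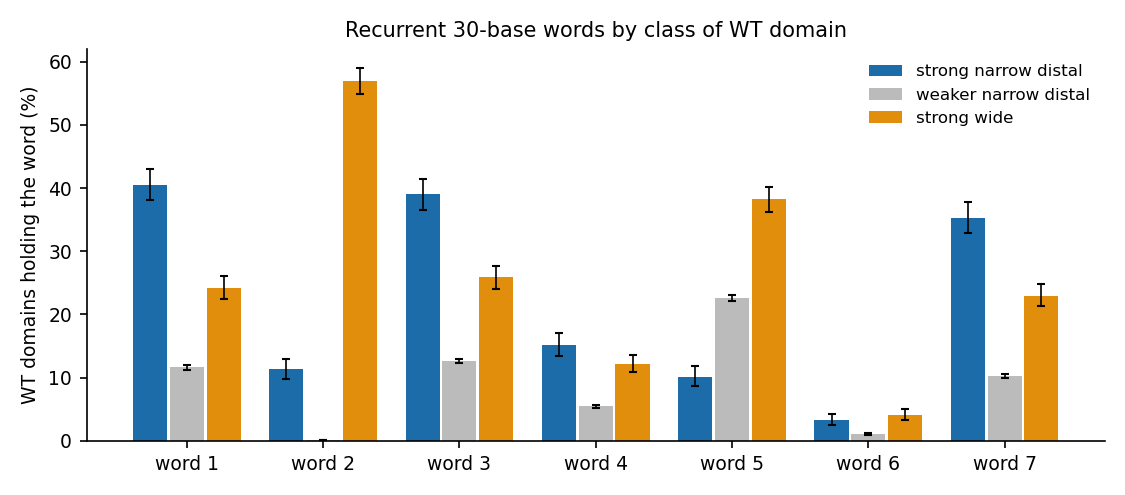
Share of WT H3K9me3 domains that hold each recurrent 30-base word, in %, for strong narrow distal (blue, n = 1498), weaker narrow distal (grey, n = 33723) and strong wide domains (orange, n = 2263). Bars are shares and error bars are 95% Wilson intervals. Words 1, 3 and 7 reached 35.3 to 40.5% of the strong narrow distal domains, and word 2 reached 57.0% of the strong wide ones.

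A measure that did not depend on picking words gave the same direction. Domains are called multi-copy here where 50% or more of the 30-base words in them had 10 or more copies in the genome. This held for 744 strong narrow distal domains (49.7%, interval 47.1 to 52.2%), for 18.04% of the weaker narrow distal domains and for 38.2% of the strong wide ones. The difference from the weaker domains was 31.6 percentage points (interval 29.1 to 34.2). The strong narrow distal domains had a median GC content of 40.8% and 9.81 CpG per kb, against 43.0% and 7.86 in the weaker ones. In 2 of the 1498 domains, neighbours on chromosome 8, the copy of the genome used here holds no resolved bases. They have no sequence values and were counted as not multi-copy.

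The scores of the strong narrow distal domains, which lie near 100 times a log2 enrichment over input, ran from 234.79 to 403.81 with a median of 251.84. Their widths ran from 800 to 8000 bp with a median of 5000. The choice was made at a score of 234.754. The 3 domains just inside it scored 234.792, and the 3 narrow distal domains just outside scored 234.717, 234.702 and 234.680. The top 10% of the WT list held 5374 domains. Of these 1578 were on the X chromosome, which was left out, and 3785 on autosomes. Among the narrow autosomal ones, 24 were within 1000 bp of a gene start.

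Most of the domains lay between genes. Of the 1498, 1236 were intergenic (82.5%, interval 80.5 to 84.3%), 229 were intronic (15.3%) and 33 touched an exon of a protein-coding gene (2.20%). Intergenic sequence makes up 61.6% of autosomal bases, intronic sequence 35.4% and exons 2.99%. In the weaker narrow distal domains, 72.9% were intergenic, so that the strong ones were intergenic more often by 9.61 points (interval 7.55 to 11.5). The median distance to the nearest gene start was 180 kb, against 70.7 kb in the weaker domains.

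Intronic domains were multi-copy in 60.7% and intergenic ones in 47.6%, a difference of 13.1 points (interval 6.10 to 19.8). A Spen KO domain was found at 95.2% of the intronic and 94.8% of the intergenic domains (difference 0.37 points, interval -3.38 to 2.89). A Spen KO domain in the top 10% of its list was found at 34.1% of the intronic and 38.4% of the intergenic domains (difference -4.37 points, interval -10.8 to 2.53).

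The main question for these domains was whether Spen KO cells had the mark at the same places. A Spen KO domain overlapped 1420 of the 1498 (94.8%, interval 93.5 to 95.8%), and 78 had none (5.21%). Over all 53745 WT domains, 11.8% had no Spen KO domain. Among weaker narrow distal domains 17.1% had none, a difference of 11.9 points from the strong ones (interval 10.6 to 13.0), and among strong wide domains 4 of 2263 had none. Of the 78, 75 had no Spen KO domain within 1000 bp either. In Spen KO, 62 of the domains were split among 2 or more domains, and the median share of a domain's bases that Spen KO domains covered was 84.5%.

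The Spen KO domains at these places also ranked high. Of the 1498, 563 had a Spen KO domain in the top 10% of the Spen KO list (37.6%, interval 35.2 to 40.1%), against 11.8% of all WT domains, 5.20% of the weaker narrow distal ones and 57.5% of the strong wide ones. The median score percentile in the Spen KO list was 87.0, with quartiles of 74.5 and 94.7, against a median of 47.5 for weaker narrow distal domains. The Spen KO score lay above the WT score in 534 of the 1420 and the median difference, Spen KO minus WT, was -12.4. Because the domains were chosen for a high WT score, a lower score in the other list says nothing about the mark. Across the 1420 domains, Spearman's rho between WT and Spen KO scores was 0.233 and Pearson's r was 0.225, both across regions that share their libraries and over the narrow range of WT scores that the choice left. A single domain sat at the top value of 1000 in Spen KO.

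**Figure D2:**
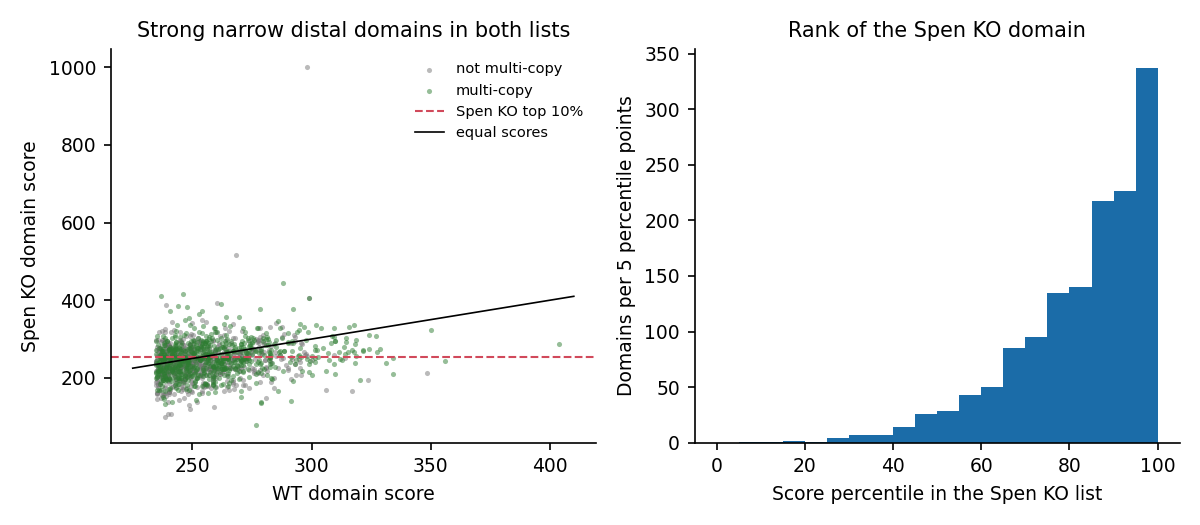
Left, score of the best overlapping Spen KO H3K9me3 domain against the WT score for the 1420 strong narrow distal domains found in both lists; green points are multi-copy domains, the red dashed line is the top 10% of the Spen KO list at 254 and the black line marks equal scores. Right, number of these domains per 5 percentile points of the Spen KO list, with a median of 87.0.

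Sequence and width went along with presence in Spen KO. Among multi-copy domains 96.4% had a Spen KO domain and among the others 93.2% (difference 3.13 points, interval 0.89 to 5.45). All 169 domains with word 2 had one, and 117 of them (69.2%) were in the top 10% of the Spen KO list, against 33.6% of the domains without the word (difference 35.7 points, interval 27.9 to 42.6). The domains with word 2 also had higher WT scores (median 278 against 250) and were wider (median 6600 against 4800 bp). For word 1 the top 10% shares were 38.9% with it and 36.7% without (difference 2.18 points, interval -2.80 to 7.19). For word 4 the median Spen KO percentiles were 82.1 with it and 87.4 without. Of the 450 domains without words 1, 2, 3, 4 and 6, 398 had a Spen KO domain (88.4%). The domains absent from the Spen KO list were narrower, with a median width of 2800 bp against 5200. By width, 77.6% of the domains up to 2000 bp had a Spen KO domain, 87.5% of those of 2200 to 4000 bp, 98.5% of those of 4200 to 6000 bp and 99.6% of those of 6200 to 8000 bp. The weaker narrow distal domains of the same widths had lower shares, 66.1, 76.0, 86.7 and 94.2%. Whether width, sequence or WT score sets presence or rank was not tested.

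The narrow distal domains were also compared along the whole range of WT scores. For this, the narrow distal domains were divided at every 10% of the scores of all WT domains. The share with a Spen KO domain was 72.8% in the lowest class and 94.8% in the highest. The multi-copy share went from 2.70 to 49.7%, and the share with word 1 from 0.153 to 40.5%. Word 2 was held by 0.0750% in the eighth class, 0.748% in the ninth and 11.3% in the highest.

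**Figure D3:**
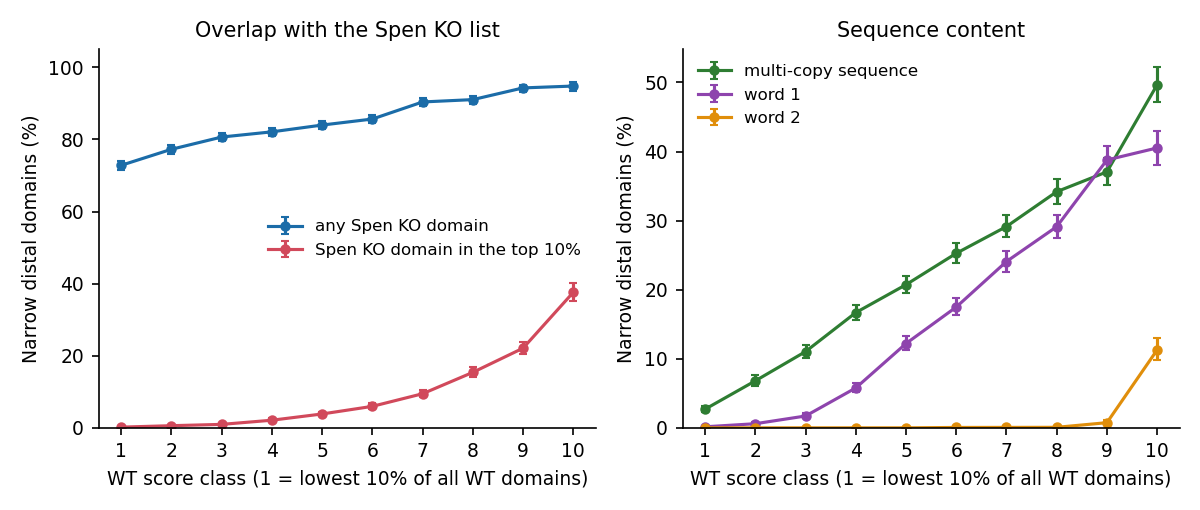
Narrow distal WT H3K9me3 domains by WT score class, from the lowest 10% of all WT domains (1) to the highest (10, the 1498 domains described here). Left, share in % with any Spen KO domain, from 72.8 to 94.8%, and with one in the Spen KO top 10%. Right, share in multi-copy sequence, from 2.70 to 49.7%, and with words 1 and 2. Points are shares and bars are 95% Wilson intervals.

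The domains were found on every autosome, from 14 on chromosome 19 to 136 on chromosome 3. The share with a Spen KO domain ranged from 83.3% of 48 on chromosome 17 (interval 70.4 to 91.3%) to all 47 on chromosome 15 and all 14 on chromosome 19. Chromosomes 4, 10, 12, 16 and 17 had the fewest Spen KO domains per WT domain in the lists as a whole, between 0.94 and 1.18, against 1.20 to 1.79 elsewhere. On these chromosomes 91.0% of 410 domains had a Spen KO domain, against 96.2% of 1088 elsewhere (difference -5.26 points, interval -8.57 to -2.52). Those present ranked higher, with a median percentile of 90.4 in the whole list against 85.2, and lower within their own chromosome, 83.6 against 89.0. The chromosomes were grouped after these lists were seen, and the part that copy number or normalization plays was not tested.

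**Figure D4:**
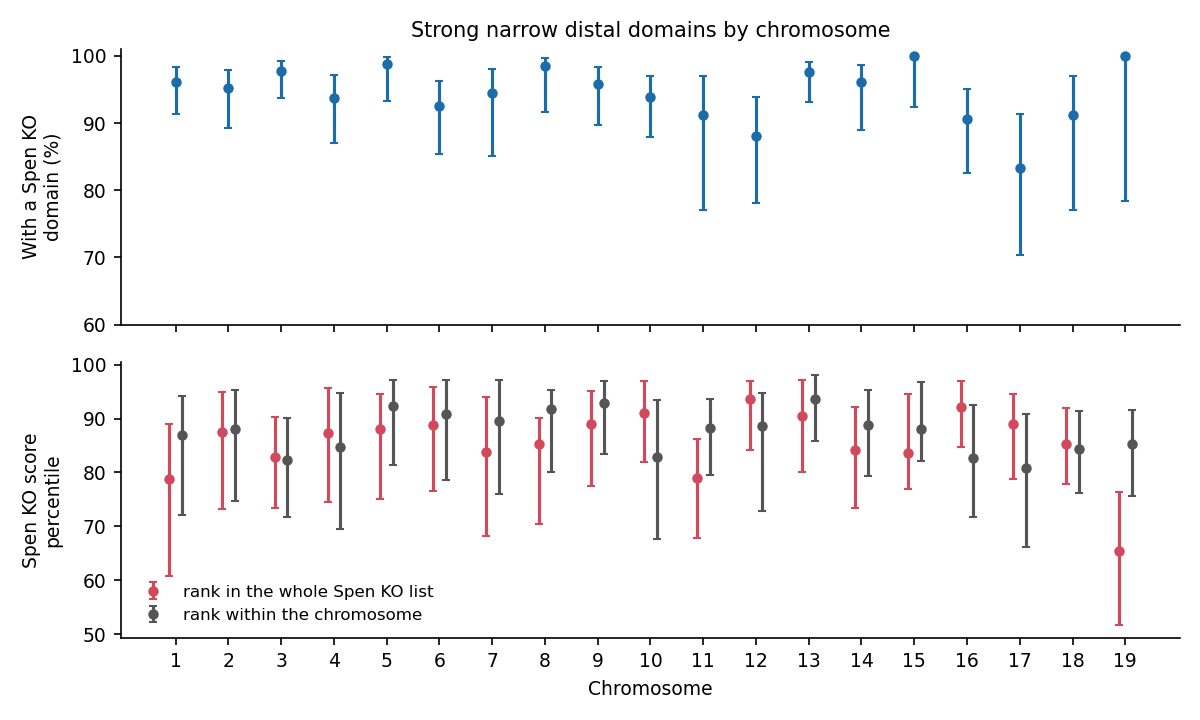
Strong narrow distal domains by chromosome. Top, share in % with a Spen KO domain, with 95% Wilson intervals, on an axis that starts at 60%; chromosome 17 was lowest at 83.3%. Bottom, median score percentile of the Spen KO domain with quartiles as bars, ranked in the whole Spen KO list (red) or within the chromosome (grey); on chromosomes 3, 4, 10, 12 and 16 to 18 the rank in the whole list was the higher one.

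The 6 domains with the highest WT scores showed both kinds of sequence. The highest, in an intron of Mctp1 (ENSMUSG00000021596.9, a calcium-binding membrane protein) at chr13:76633801-76636200, scored 404 in WT and 287 in Spen KO, percentile 97.0, and held word 2. The Spen KO domain with that score spanned only chr13:76633801-76634400, that is 600 bp against 2400 bp in WT. The second, in an intron of Vmn2r20 (ENSMUSG00000090280.1, a vomeronasal receptor) at chr6:123361801-123365600, scored 393 and had no Spen KO domain nearer than 20.8 kb. The domain on chromosome 4 that carries words 1, 3 and 7 scored 356 in WT and 244 in Spen KO, percentile 86.3. A domain in an intron of Atp6v1e1 (a subunit of the vacuolar proton pump) at chr6:120762801-120767000 scored 350 and 323, percentile 99.2, and held word 2. The intergenic domain at chr8:104149201-104150600 scored 349 and 212, with 5.03% of its words in 10 or more copies, the lowest of the 6. The last, at chr12:95158601-95161000, scored 334 and 251 and held words 1, 3 and 7. Thus 5 of the 6 had a Spen KO domain, at percentiles from 71.3 to 99.2.

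The domains with no Spen KO domain within 1000 bp were of several kinds. After that in Vmn2r20, the highest WT scores were at chr10:11794401-11796600 (332), chr4:124033801-124035800 (327), chr2:40613201-40616000 in an intron of Lrp1b (301), chr6:103357001-103361400 (296) and chr10:54996601-54999000 (287). Their widths were 2000 to 4400 bp and the nearest Spen KO domain was 7.60 to 71.2 kb away. The pair on chromosome 10 and the domain at 103 Mb of chromosome 6 held word 1, as did 19 of the 78 without a Spen KO domain and 588 of the 1420 with one. Lrp1b, a receptor of the LDL receptor family, held 4 of the strong narrow distal domains, and 3 of these had a Spen KO domain.

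H3K4me3 lay within 1000 bp of few of the domains. In WT, 76 had it (5.07%, interval 4.07 to 6.30%), against 7.67% of all WT domains, and in Spen KO 72 had it (4.81%), against 6.93%. All WT domains include those at gene starts, which the choice left out. Among weaker narrow distal domains the shares were 6.54% in WT and 5.65% in Spen KO. The strong ones differed from these by -1.46 points (interval -2.50 to -0.20) in WT and -0.85 points (interval -1.85 to 0.38) in Spen KO. At the strong narrow distal domains themselves the counts were 60 and 57. The same 69 domains had H3K4me3 in both genotypes, 7 in WT alone (0.467%, against 1.30% of all WT domains) and 3 in Spen KO alone (0.200%, against 0.549%). The peaks were of middling strength, with median score percentiles of 49.4 in the WT list and 51.6 in the Spen KO list, and narrow, with median widths of 957 and 841 bp against 1458 and 1324 bp in the whole lists. Of the 76 in WT, 68 were multi-copy domains, so that 9.14% of the multi-copy and 1.06% of the other domains had the mark (difference 8.08 points, interval 5.95 to 10.4). Intronic domains had it in 9.17% and intergenic ones in 4.29% (difference 4.88 points, interval 1.53 to 9.43).

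Shared sequence was also found among the domains with H3K4me3. Of the 79 domains with H3K4me3 in either genotype, 51 shared a 30-base word, called here H3K4me3 word 1, which was chosen after these domains had been seen. Of the 566 strong narrow distal domains that held it, 445 also held word 1, so it belongs largely to the same sequence. It had 13104 copies in the genome, 80.9% of them in WT H3K9me3 domains. It is shown with 90 bases of the highest scoring domain that holds it, the word in capitals.
H3K4me3 word 1, chr13:65096196-65096285, plus strand: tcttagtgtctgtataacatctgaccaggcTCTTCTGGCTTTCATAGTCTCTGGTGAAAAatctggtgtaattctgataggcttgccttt

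The word was picked in the strong domains alone, and the weaker ones were therefore examined for it. There, 31.7% of the 3873 domains with the word had WT H3K4me3 (interval 30.3 to 33.2%), against 3.27% of the 29850 without it, a difference of 28.4 points (interval 26.98 to 29.93). In Spen KO the shares were 28.7 and 2.66%.

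The strong domains with H3K4me3 word 1 had the mark less often than the weaker domains with it. In WT, 49 of 566 had the mark (8.66%, interval 6.61 to 11.3%), a difference of -23.05 points from the weaker domains (interval -25.6 to -20.1), although the word had been picked in the marked strong domains. In Spen KO, 51 of 566 had it (9.01%), a difference of -19.7 points (interval -22.2 to -16.7). By WT score class, the WT share was 41.7% of 24 in the second class, 47.5% of 80 in the third, 53.8% in the fourth, 47.4% in the sixth, 20.7% in the eighth and 8.66% in the highest. The median width was 5400 to 6000 bp in all classes from the third up. A further word, H3K4me3 word 2, went the other way. It was held by 12 of the 79 domains with H3K4me3 and by 82 strong narrow distal domains, and was picked in the same manner. In WT, 13.4% of the strong domains with it had H3K4me3, against 4.20% of 476 weaker domains with it (difference 9.21 points, interval 3.05 to 18.4). In Spen KO the shares were 12.2 and 2.73%. Among the weaker domains, those with H3K4me3 word 2 had WT H3K4me3 less often than those without it (6.57%, difference -2.37 points, interval -3.86 to -0.15), and in Spen KO the difference was -2.97 points (interval -4.12 to -1.06). H3K27Ac was found near none of the 566 strong domains with H3K4me3 word 1 in either genotype, which allows a share of up to 0.674% by the upper Wilson bound.

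**Figure D5:**
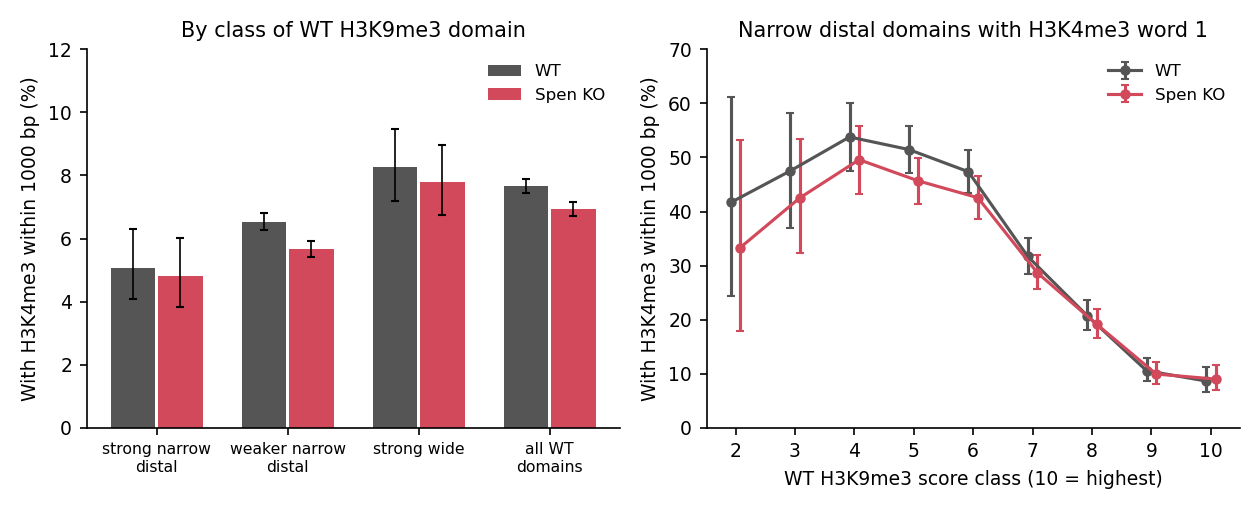
Left, share of WT H3K9me3 domains with an H3K4me3 peak within 1000 bp, in %, in WT (grey) and Spen KO (red), by class of domain; strong narrow distal domains had 5.07 and 4.81%. Right, the same share among narrow distal domains that hold H3K4me3 word 1, by WT score class (classes with under 20 domains are left out); it was 53.8% in WT in the fourth class and 8.66% in the highest. Error bars are 95% Wilson intervals.

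The 3 domains with H3K4me3 in Spen KO alone had weak peaks. At the Fetub gene, which encodes a secreted protease inhibitor of the fetuin family (chr16:22926601-22930200, WT score 273), the peak was 211 bp wide with values of 14.9 and 14.8 in the 2 libraries, percentile 24.5 of its list. In an intron of Slc35f1, a solute carrier gene (chr10:52481001-52485600), the peak lay 849 bp outside the domain with values of 19.8 and 9.71, percentile 24.1, and there was no Spen KO H3K9me3 domain within 91.6 kb. The third lay in chr18:66908401-66916000, with values of 11.7 and 13.9, percentile 13.5.

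H3K27Ac was rarer still. It lay within 1000 bp of 20 domains in WT (1.34%, interval 0.866 to 2.05%), against 2.02% of all WT domains, and of 15 in Spen KO (1.00%), against 2.00%. Among weaker narrow distal domains the shares were 1.78% in WT and 1.75% in Spen KO. The strong ones differed from these by -0.44 points (interval -0.93 to 0.29) in WT and -0.75 points (interval -1.17 to -0.09) in Spen KO. Strong narrow distal domains with H3K27Ac in both genotypes numbered 9. In WT alone there were 11 (0.734%, against 0.629% of all WT domains) and in Spen KO alone 6 (0.401%, against 0.608%). At the domain itself the order of the genotypes was the reverse, with 9 domains in WT and 12 in Spen KO. Of these, 5 were in WT alone (0.334%, against 0.528% of all WT domains) and 8 in Spen KO alone (0.534%, against 0.538%). Of the 20 in WT, 6 were multi-copy. In neither genotype was the share with the mark above that of WT domains at large, and the 2 counts of domains marked in a single genotype rest on 1 list each. Any H3K4me3 or H3K27Ac in either genotype was found at 99 domains (6.61%), and 86.9% of these had a Spen KO H3K9me3 domain, against 95.4% of the others (difference -8.49 points, interval -16.6 to -3.05).

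Of the 6 domains with H3K27Ac in Spen KO and not in WT, 3 had no Spen KO H3K9me3 domain and 3 had one. Among weaker narrow distal domains so marked, 126 of 180 had one, and among all WT domains so marked, 261 of 327. Of the 11 strong narrow distal domains with H3K27Ac in WT alone, 9 had one. Among the 6, the strongest peak lay at the edge of chr6:141541801-141549200, near Slco1b2, with values of 23.8 and 23.3 in the 2 libraries, percentile 68.1, and H3K4me3 was present there in both genotypes. This H3K27Ac peak (chr6:141549110-141549799) lay outside the highest scoring Spen KO H3K9me3 domain of that place, chr6:141541601-141546000. The second lay within chr7:94242201-94248400 (20.3 and 20.1), where the nearest Spen KO H3K9me3 domain was 9.60 kb away and an Oct4 peak was found in 1 Spen KO library. The third lay within chr10:111345801-111350600 (10.4 and 20.8), where the Spen KO H3K9me3 domain was at percentile 96.0. The fourth and the fifth, with no Spen KO H3K9me3 domain within 5.40 and 27.2 kb, share sequence: 1282 of the 30-base words of the fourth domain, 46.3% of its words, were also in the fifth. The sixth lay in an intron of Epha4, an ephrin receptor (chr1:77448601-77454400; 13.5 and 12.6). The 240 bases at the centre of the Spen KO H3K27Ac peak are shown for the fourth, on chromosome 16, and the fifth, on chromosome 9, with CpG in capitals, since they are the pair that share DNA.
chromosome 16, domain chr16:81750401-81753200, shown chr16:81752239-81752478, plus strand: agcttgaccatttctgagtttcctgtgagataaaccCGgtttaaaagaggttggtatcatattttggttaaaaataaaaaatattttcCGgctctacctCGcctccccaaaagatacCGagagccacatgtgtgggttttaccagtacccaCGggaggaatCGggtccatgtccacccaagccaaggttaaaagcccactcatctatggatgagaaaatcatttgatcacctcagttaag
chromosome 9, domain chr9:84777201-84784400, shown chr9:84783256-84783495, plus strand: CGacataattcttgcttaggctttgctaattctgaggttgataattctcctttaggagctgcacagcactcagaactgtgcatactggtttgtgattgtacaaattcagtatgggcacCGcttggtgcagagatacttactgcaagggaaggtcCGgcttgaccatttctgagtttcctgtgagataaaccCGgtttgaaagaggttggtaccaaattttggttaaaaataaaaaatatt

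Domains that share part of this sequence had H3K27Ac in both genotypes at other places. A domain 161 kb from the start of Trp63, which encodes the transcription factor p63 (chr16:25518001-25523200, WT score 262, Spen KO score 391), shared 2618 words with the fifth domain above. It had H3K27Ac in WT (25.3 and 15.03 at the strongest peak within 1000 bp) and in Spen KO (38.5 and 18.5), and Oct4 within 1000 bp in all 4 libraries, the only strong narrow distal domain with that. The Spen KO H3K9me3 domain that scored 391 spanned only chr16:25518001-25519400 of the 5200 bp WT domain. The domain at chr4:124033801-124035800, with a WT score of 327 and no Spen KO H3K9me3 domain, shared 1282 words with the Trp63 domain and had H3K4me3 and H3K27Ac within 1000 bp in both genotypes. Its strongest H3K27Ac peaks were at different sites, both outside the domain. In WT the peak was chr4:124032173-124033189, 611 bp before the domain, and in Spen KO it was chr4:124036288-124036773, 487 bp after it. A word common to these 4 domains, shown here at the last of them with the word in capitals, was chosen after they had been seen.
H3K27Ac word 2, chr4:124035668-124035757, plus strand: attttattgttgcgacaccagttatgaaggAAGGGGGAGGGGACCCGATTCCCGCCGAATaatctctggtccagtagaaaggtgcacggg

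This word had 641 copies in the genome, 70.2% of them in WT H3K9me3 domains, and 9 strong narrow distal domains held it. Of the 9, 2 had H3K27Ac in WT and 4 in Spen KO, and 6 had a Spen KO H3K9me3 domain. The 73 weaker narrow distal domains with the word, which the choice did not use, had H3K27Ac in 9 cases in WT (12.3%, interval 6.62 to 21.8%) and in 10 in Spen KO (13.7%, interval 7.61 to 23.4%). Weaker domains without the word had 1.75 and 1.73%. The word thus went with H3K27Ac to a like extent in both lists in the weaker domains (differences of 10.6 points in WT, interval 4.87 to 20.05, and 11.97 points in Spen KO, interval 5.89 to 21.7).

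A further group of 4 domains, chosen after their values were seen, shared a word with only 7 copies in the genome. Of these, 3 lay on chromosome 14 within chr14:26789001-26793600, chr14:26929001-26933200 and chr14:27066801-27073000, and the fourth at chr10:84508401-84512400. All 4 had H3K27Ac in WT, and only that on chromosome 10 had it in Spen KO. All 4 had a Spen KO H3K9me3 domain, with scores of 404, 239 and 249 on chromosome 14, against 299, 244 and 252 in WT. The domain on chromosome 10 scored 180 in Spen KO, against 257 in WT. The 3 on chromosome 14 made up 3 of the 11 domains with H3K27Ac in WT alone.

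The domains with H3K27Ac at the domain in both genotypes numbered 4. Besides that near Trp63, they were at Ms4a14 (chr19:11375601-11378400; WT values 47.2 and 33.3, Spen KO values 33.2 and 58.8), at chr2:135382401-135385000, 99.7 kb from the start of Plcb4 (29.9 and 23.1, 39.9 and 32.3), and at chr13:26205201-26208200 (27.4 and 22.03, 28.99 and 22.2). These 3 were not multi-copy and had a Spen KO H3K9me3 domain at percentiles 56.7 to 79.4. At Ms4a14 and on chromosome 13 the values of the genotypes overlapped, and on chromosome 2 both Spen KO values lay above both WT values. Values of the 2 lists were not normalized to each other.

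Oct4, a transcription factor of pluripotent cells, was found within 1000 bp of 3 and 11 domains in the WT libraries and of 7 and 13 in the Spen KO libraries. The libraries of the genotypes overlapped. For WT the mean share was 0.467% ± 0.378 (SD, n = 2). For Spen KO it was 0.668% ± 0.283 (SD, n = 2), higher by 0.200 points (two-sided exact permutation test, p = 0.667, where the smallest p possible is 0.333). As the paired libraries are described as technical replicates and Spen KO is a single clone, the SD and p cover spread between libraries only. No Oct4 peak was near 1478 of the domains. The weaker narrow distal domains had means of 0.526 and 0.546%.

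Genes seldom held such a domain, and those that did were long. Of 21418 autosomal protein-coding genes, 212 held at least 1 (0.990%), and their median length was 246 kb against 15.5 kb for all. Ptprd, a receptor-type tyrosine phosphatase, Lrp1b, Lrrc4c, a synaptic adhesion protein, and Mctp1 held 4 each, and Cntnap2 and Dlg2, both of the neuronal membrane, held 3 each. For Mctp1 this was 0.616 per 100 kb and for Ptprd 0.176. Among the 1433 olfactory and vomeronasal receptor genes on autosomes, 3 held a domain, Vmn2r20, Vmn2r100 and Vmn2r103 (0.209%). These receptor genes had a median length of 0.967 kb, and the choice barred domains within 1000 bp of a gene start. The 362 genes with Zfp symbols, the 19 autosomal symbols matched of 22 for H3K9me3 silencing machinery (Setdb1 and Trim28 among them), the 11 for Spen and its partners and the 17 matched of 18 for pluripotency held none.

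The lists came from cells with the marks of mESCs. H3K4me3 and H3K27Ac were at the starts of 8 of 8 stem cell marker genes in both genotypes, and H3K27Ac was at none of 7 genes of other lineages in either list. H3K4me3 was at 7 of those 7 in WT and 6 in Spen KO. The WT and Spen KO lists held 53745 and 70268 H3K9me3 domains, 34823 and 31091 H3K4me3 peaks and 13922 and 11932 H3K27Ac peaks, and the Oct4 lists held 1806 to 4111 peaks. Read numbers were not analysed here, so depth is unknown. The Spen KO H3K4me3 list held 6 peaks within the Spen gene (chr4:141023805-141094512), with none over 38.3 kb in its middle, where the WT list had none either except for 1 peak that reached into its edge, so that the peak lists do not check the deletion.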

How the data were processed

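Peak lists of 16 ChIP libraries (2 per genotype and antibody) with 12 inputs were analysed. Per the labels and their methods, the authors mapped reads to mm9 with Bowtie2, kept uniquely mapped pairs, removed duplicates with Picard, called peaks with MACS2 (q-value 0.01) and, for H3K4me3 and H3K27Ac, kept an irreproducible discovery rate below 0.05. The authors also made alignments with multiply mapping reads placed at random, and which alignments gave these lists is not stated. The H3K9me3 lists hold joined windows of 200 bp. Their deposited score, whose caller and definition are not stated, lies near 100 times a log2 ratio of ChIP over input. The other deposited scores are a value per library (H3K4me3, H3K27Ac) and a fold enrichment, that is a ratio over input (Oct4).

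Overlap meant at least 1 shared bp, and marks counted within 1000 bp. Start sites were those of all protein-coding transcripts of GENCODE vM1, which has the chromosome lengths of mm9. Words of 30 bases were counted on both strands of mm9. The scripts (Python 3.11.15, pandas 2.3.3, scipy 1.17.1) were tested on simulated data. Differences carry Newcombe intervals. The label replicate numbers of Oct4 were not known to pair libraries. Named regions were the 6 highest WT scores, up to 6 with no Spen KO domain within 1000 bp, up to 6 each with Spen KO H3K27Ac or H3K4me3 absent in WT, and up to 6 with H3K27Ac at the domain in both genotypes. The domains, the gene lists and the rules were chosen with earlier results of these data known. The word search among marked domains was added after the data were seen. 0 columns of other samples were present. Alternatives are given in the closing section.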

Additional observations from a re-analysis of the deposited data

How the results depend on the processing

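A share was said to move when an alternative took it outside its own 95% interval. The Oct4 difference has no such interval and was said to move only when its sign reversed. Of 82 values under 22 settings, 54 did not move. The share with a Spen KO domain (94.8%) was 90.3% for widths of 5000 bp or less, 93.2% without multi-copy domains, 90.6% against the stronger 50% of the Spen KO list and 96.2% without chromosomes 4, 10, 12, 16 and 17 (added after the data were seen). The share in the Spen KO top 10% (37.6%) was 45.8% and 28.2% when the top 5% and 20% of WT scores were taken, 32.2% for the smaller width, 31.0% without multi-copy domains, 31.8% with lists of equal length, 34.01% without those chromosomes and 41.7% ranked within chromosomes, the last 2 also added later. The multi-copy share (49.7%) was 58.6% and 42.1% at the top 5% and 20%, 44.9% for the smaller width, and 55.5% and 38.1% for words in at least 5 and 50 copies. The intergenic share (82.5%) was 85.9% without multi-copy domains and 79.9% with genes of all biotypes. H3K4me3 in WT (5.07%) and Spen KO (4.81%) was 6.45% in both for the smaller width, 1.06% and 0.796% without multi-copy domains, 4.01% and 3.81% at the domain itself, and 2.80% and 2.67% for the stronger 50% of peaks. WT H3K27Ac (1.34%) was 0.601% at the domain itself, where Spen KO H3K27Ac (1.00%) was 0.801%. The causes were not tested, except that the stricter overlaps and shorter lists hold fewer peaks by construction. The Oct4 difference of 0.200 points ranged from -0.0668 without WT replicate 1, where it reversed, to 0.467 without WT replicate 2, and with the replicate number as a block it was 0.200 points (exact permutation within pairs, p = 0.5, the smallest that 2 pairs allow). In both genotypes replicate 2 had the higher share, and the labels tie the numbers to nothing shared. These results rest on lists: a domain that a list lacks may have missed the threshold narrowly, depth is unknown, and repeated sequence can be mapped to the wrong copy.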

Other observations

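The same rule applied to the Spen KO list gave 3947 strong narrow distal domains, against 1498 in WT. The Spen KO list held 7026 domains in its top 10%, against 5374 in WT. Its domains had a median width of 3800 bp, against 5400 in WT, so more of them can pass the width limit. The part these play in the higher count was not tested. Of the 3947, 93.4% (interval 92.5 to 94.1%) had a WT domain and 22.8% had one in the WT top 10%. They overlapped 529 of the 1498 WT domains (35.3%), and 536 of the 3947 (13.6%) overlapped a WT one. Neighbouring WT domains of the kind lay a median of 558.6 kb apart, and 36 of the 1479 neighbouring pairs were within 10 kb of each other.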
